A study of Mus musculus with 60 samples.

Results

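The signals of 32 genes of sterol and fatty acid synthesis were compared across 6 strains of undifferentiated mouse embryonal carcinoma cells, the stem cells of a teratocarcinoma. The members were taken as those probe sets of the MOE430A and MOE430B Affymetrix arrays whose annotation carries the gene's symbol alone, and 31 of the 32 genes had at least 1 such probe set, out of 18193 genes with a single-symbol probe set on the 2 array types. Acat2, the cytosolic acetoacetyl-CoA thiolase, had none and was not read. All 31 passed the filter on low signals, which 13181 of the 18193 genes passed. Of the 31, 18 are sterol synthesis genes, 5 encode or regulate the transcription factors called SREBPs (grouped here as regulators) and 8 belong to fatty acid synthesis. P19 is the parental line, derived from a C3H male mouse embryo. P19CL6 is a substrain of P19, and CL6G26, CL6G36, CL6G45 and CL6G52 are 4 sublines of P19CL6. The labels name no treatment or added gene for any strain. All were grown undifferentiated in alpha-MEM with 10% fetal calf serum. Each strain has 5 replicates described as biological, and each replicate was hybridised to 1 array of each type, which gives 60 arrays. Whether these are separate cultures is not stated, so p-values measure only the spread between these samples, and each strain is a single line. Total RNA was measured in bulk, so fewer cells of a type and less RNA per cell cannot be told apart.

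Cells make cholesterol from acetyl-CoA through the mevalonate pathway, in which short isoprenoid units are built, joined into squalene and closed into the sterol ring. Fatty acids start from the same acetyl-CoA and are then elongated and desaturated. Both branches are governed by SREBPs, membrane-bound transcription factors that Scap carries out of the endoplasmic reticulum when sterols are scarce and that the Insig proteins hold back when sterols are plentiful. SREBP-2 is known for acting mainly on sterol genes and SREBP-1c mainly on fatty acid genes.

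Values are log2 signals after quantile normalization within an array type, so levels are compared between strains for 1 probe set and never between genes. A gene was called where its adjusted p in limma was below 0.05, with p-values adjusted over every probe set tested on its array type. Every array was compared with the mean of each strain over 15012 MOE430A probe sets that belong to no member, as the mean absolute log2 difference. P19 replicates 4 and 5 were closer to the P19CL6 mean (0.199 and 0.237) than to the mean of the other P19 arrays (0.306 and 0.338). CL6G52 replicate 1 was closer to the CL6G45 mean (0.283) than to the other CL6G52 arrays (0.366). P19CL6 replicate 2 was about as far from its own strain (0.226) as from CL6G26 (0.223), and the other 26 MOE430A arrays were closest to their own label. The 3 arrays that stood apart did so on MOE430B as well, where 9 of 30 arrays were not closest to their own strain. The labels of these 3 samples were kept. Whether they belong to the strain they are labelled with was not tested, and every value over all replicates of P19 or CL6G52 holds only if they do. Member results for these strains are given with and without them. In every strain 7 of 8 embryonal carcinoma markers were above the low-signal floor on every array. Markers of other cell types were in part detected as well. Depending on the strain, 2 to 4 of 6 endoderm markers and 2 of 6 fibroblast markers were above the floor on every array, with Dab2, Col1a2 and Thy1 above it on all 30. Lama1 for endoderm, Myl7 for heart muscle and Col3a1 and Pdgfrb for fibroblasts were below the floor on every array. Median deposited signals were 30.2 to 53.35 for MOE430A arrays and 10.6 to 16.5 for MOE430B arrays, and no array's values were identical to another's.

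In CL6G52 the mean of the sterol members lay below that of P19CL6 on 4 of 5 arrays, and the mean of the fatty acid members lay close to it. The log2 signals of the 18 sterol genes, each set against its P19CL6 mean, averaged -0.44, -0.44, -0.47 and -0.45 on CL6G52 replicates 2 to 5 and 0.07 on replicate 1. The 8 fatty acid genes averaged 0.11, -0.05, -0.02 and -0.04 on the same 4 arrays and 0.12 on replicate 1. On those 4 arrays the sterol mean is lower than on every array of the other strains, while the fatty acid mean is inside the range of the other strains. The sterol mean minus the fatty acid mean was -0.37 ± 0.19 (SD, n = 5) in CL6G52, against 0 ± 0.1 in P19CL6, 0.08 ± 0.05 in CL6G26, -0.01 ± 0.07 in CL6G36, -0.08 ± 0.12 in CL6G45 and -0.05 ± 0.07 in P19. In P19 both means were low on replicates 1 to 3, at -0.32, -0.32 and -0.29 for sterol genes and at -0.24, -0.17 and -0.31 for fatty acid genes. On P19 replicates 4 and 5 the sterol means were 0.01 and -0.04 and the fatty acid means 0.02 and 0, which lies within the P19CL6 arrays. These means describe the arrays and were not tested.

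**Figure D1:**
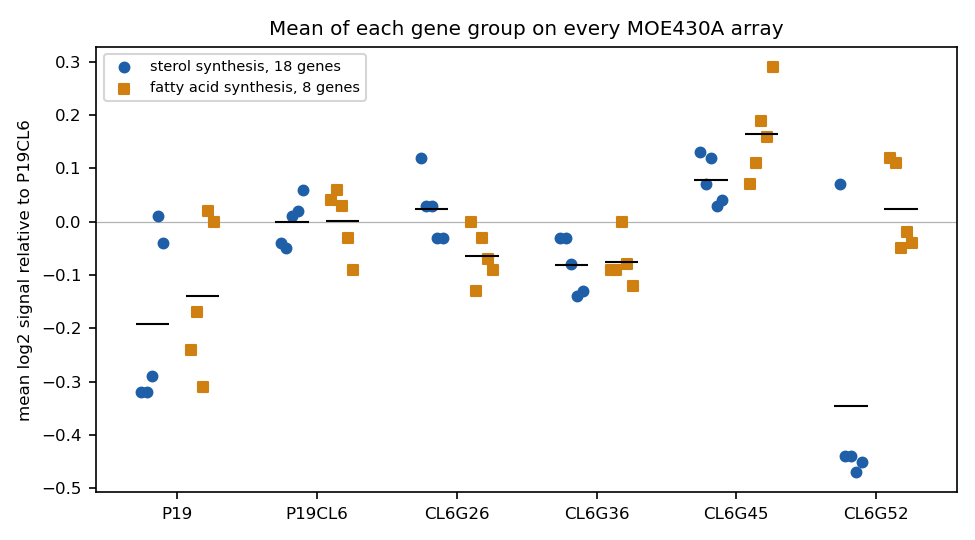
Mean log2 signal of the 18 sterol synthesis genes (circles) and the 8 fatty acid synthesis genes (squares) relative to each gene's P19CL6 mean, 1 point per MOE430A array, with strain means as lines. On the plot 4 of the 5 CL6G52 arrays have sterol means between -0.47 and -0.44, and 3 of the 5 P19 arrays are low for both groups.

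**Figure D2:**
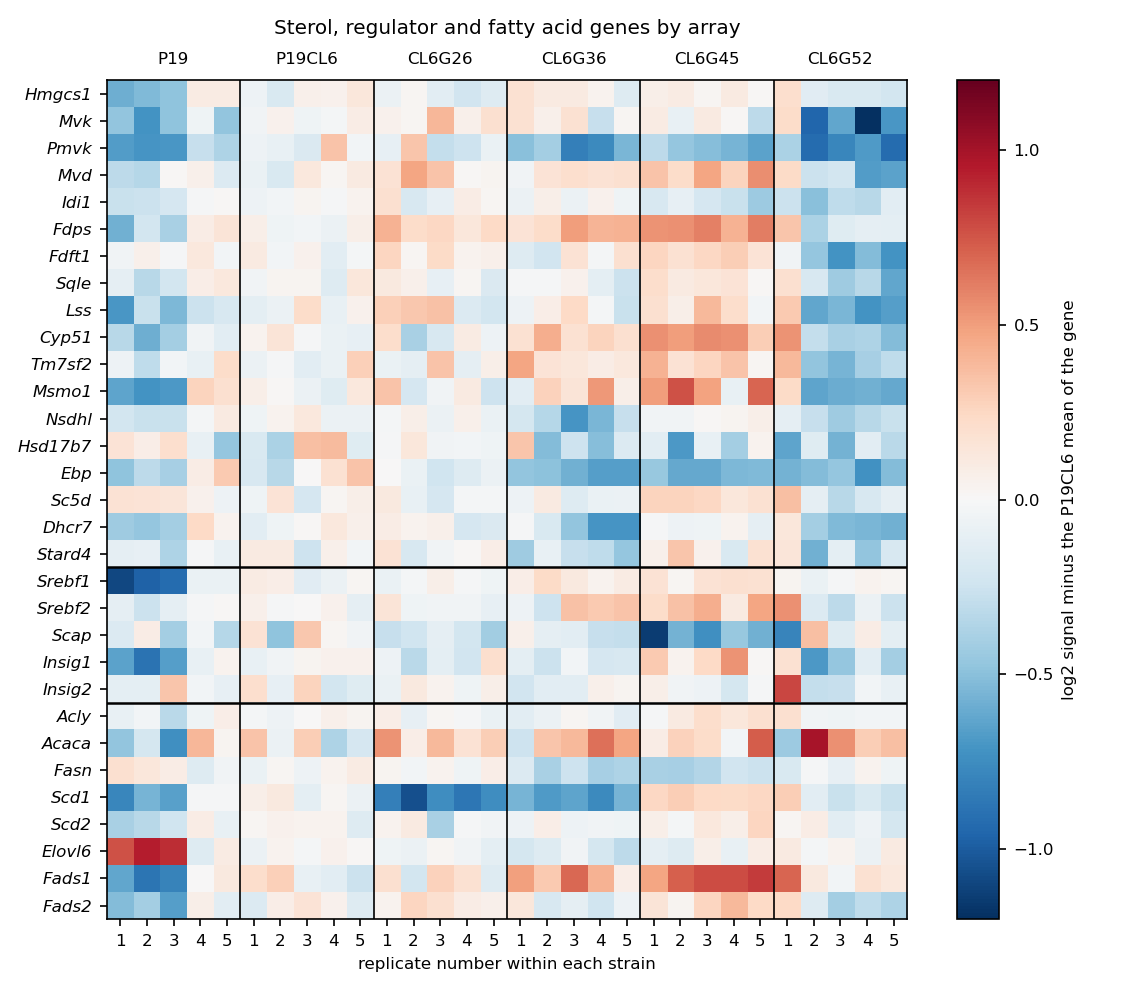
Log2 signal of each member minus its P19CL6 mean, by array, with genes in pathway order (sterol synthesis, SREBP regulators, fatty acid synthesis from top to bottom) and replicates 1 to 5 of each strain from left to right. Insig1 was read on MOE430B and the other 30 members on MOE430A. The blue block of sterol genes in CL6G52 starts at replicate 2, and P19 replicates 4 and 5 differ from replicates 1 to 3.

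In CL6G52 against P19CL6, 6 of 31 members were called over all 5 replicates, and all 6 fell. The background was 3.18% of all genes tested called in either direction, 1.38% called higher and 1.8% called lower. The arrays of CL6G52 and P19CL6 did not overlap for 4.89% of genes. The 6 are sterol synthesis genes: Mvk, Pmvk, Idi1, Fdft1, Nsdhl and Ebp. Of 5 other tested probe sets of these genes, 5 were also lower and 0 were called. On the probe set read for each, all 18 sterol genes had a lower mean in CL6G52, with a median of -0.31 against -0.01 over all genes. A dimmer probe set went the other way, without a call, for Hmgcs1 (0.21), Hsd17b7 (0.25) and Stard4 (0.15). Every other tested probe set of a sterol gene was lower. Without replicate 1 of CL6G52, 13 of 31 members were called, all of them sterol genes and all lower, against a background of 4.89% in either direction, 1.91% higher and 2.97% lower. The sterol median was then -0.41. None of the 5 regulators and none of the 8 fatty acid genes was called in limma in either form. At an unadjusted p below 0.05, 1 regulator and 0 fatty acid genes passed with all replicates, where 15.3% of all genes did, and 1 regulator and 2 fatty acid genes without replicate 1, where 17.7% did. With median scaling the contrast between the group medians was weaker. The fatty acid median was -0.13 with all replicates and -0.12 without replicate 1, against -0.02 and -0.03 with quantile normalization. The sterol medians were -0.36 and -0.46. Median scaling gave 9 sterol and 0 fatty acid calls with all replicates, where 3.61% of all genes were called. Without replicate 1 it gave 14 sterol calls and 1 lower fatty acid gene, where 4.79% of all genes were called. In that form 5 of 8 fatty acid genes and 17.0% of all genes had an unadjusted p below 0.05. On the probe set read for each, no member reached a 2-fold difference in this or the other 4 comparisons. Of all genes, 0.501% in CL6G52, 0.258% in CL6G26 and 1.46% in CL6G36 were both called and 2-fold apart. The shares were 1.38% in CL6G45 and 0.652% for P19CL6 against P19. A dimmer probe set was called at over 2-fold for Scd1 in CL6G26 (-1.15, adjusted p = 6.81e-05 in limma). A dimmer Fdft1 set was too in CL6G45 (-1.27, adjusted p = 0.0467 in limma). That Fdft1 set was above the low-signal floor on 18 arrays, and the brighter set read for Fdft1 differed by 0.23 there.

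The enzymes that phosphorylate mevalonate showed the largest of these differences. Mvk, mevalonate kinase, read 7.1, 7.19, 7.09, 7.12 and 7.23 on the P19CL6 arrays. On the CL6G52 arrays Mvk read 7.36, 6.19, 6.52, 5.91 and 6.44. The last 4 arrays lie below every P19CL6 array and the first lies above them all. Mvk fell by 0.66 (SE 0.16, adjusted p = 0.0148) with all replicates and by 0.88 (SE 0.13, adjusted p = 2.93e-05) without replicate 1, which is 1.84-fold. Leaving out CL6G52 replicate 4 alone ended the call of Mvk, at a difference of -0.52 and an adjusted p of 0.0585. Pmvk, phosphomevalonate kinase, read 7.51, 7.48, 7.4, 7.91 and 7.54 in P19CL6 and 7.19, 6.65, 6.79, 6.89 and 6.65 in CL6G52. All 5 CL6G52 arrays are below all 5 P19CL6 arrays for Pmvk, replicate 1 included. Pmvk fell by 0.73 (SE 0.12, adjusted p = 0.000329), and by 0.82 without replicate 1.

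Further along the mevalonate steps the differences were smaller. Mvd, the decarboxylase that forms isopentenyl diphosphate, had a mean of 7.47 ± 0.13 (SD, n = 5) in P19CL6 and 7.16 ± 0.37 in CL6G52, and differed by -0.31 (adjusted p = 0.168). Without replicate 1 Mvd fell by 0.45 (adjusted p = 0.0136). A dimmer Mvd probe set fell by 0.52 with all replicates (adjusted p = 0.0401), and the mean of both was called as well. Idi1, which interconverts the isoprenoid units, fell by 0.3 (SE 0.08, adjusted p = 0.0202), a call that was lost without P19CL6 replicate 5 or without CL6G52 replicate 2, with an adjusted p of up to 0.0714. The other Idi1 probe set differed by -0.01 (adjusted p = 0.985), and the mean of both gave -0.15 and no call in CL6G52 or in CL6G45. Fdps, farnesyl diphosphate synthase, differed by -0.08 with all replicates and by -0.19 (adjusted p = 0.294) without replicate 1.

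Hmgcs1, the HMG-CoA synthase that opens the pathway, was not called. Its signals were 10.5, 10.56, 10.61, 11.19 and 11.19 in P19, 11.03, 10.91, 11.15, 11.14 and 11.23 in P19CL6 and 11.02, 11.11, 10.96, 10.86 and 10.94 in CL6G26. In the other sublines they were 11.27, 11.2, 11.2, 11.13 and 10.94 for CL6G36, 11.16, 11.19, 11.11, 11.2 and 11.1 for CL6G45 and 11.29, 10.95, 10.91, 10.91 and 10.87 for CL6G52. P19 replicates 1 to 3 are the lowest of the 30 arrays for Hmgcs1, and CL6G52 overlaps P19CL6. The difference of CL6G52 from P19CL6 was -0.11 (adjusted p = 0.651), or -0.18 (SE 0.1, adjusted p = 0.327) without replicate 1. A p above the threshold does not show that the levels were equal. A dimmer Hmgcs1 probe set was called in CL6G45, at 0.37 (adjusted p = 0.0383). For P19CL6 against P19, Hmgcs1 was called with the mean of its probe sets, and on the brightest without P19 replicate 4, replicate 5 or both.

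At the squalene steps Fdft1, squalene synthase, read 8.24, 8.1, 8.18, 8 and 8.11 in P19CL6 and 8.09, 7.67, 7.41, 7.61 and 7.41 in CL6G52. On 4 CL6G52 arrays the signal is below every P19CL6 array, and replicate 1 falls among them. Fdft1 fell by 0.49 (SE 0.1, adjusted p = 0.00277), and by 0.6 without replicate 1. It was called without any single array, but with the mean over all its tested probe sets the difference was -0.34 and the adjusted p 0.299, all of them having the same sign. Sqle, squalene epoxidase and a rate-limiting step, read 8.95, 8.73, 8.84, 9.14 and 9.19 in P19, 9.02, 9.09, 9.09, 8.91 and 9.2 in P19CL6 and 9.18, 9.12, 8.96, 9.08 and 8.89 in CL6G26. The remaining Sqle signals were 9.05, 9.05, 9.11, 8.94 and 8.8 in CL6G36, 9.27, 9.17, 9.2, 9.22 and 9.07 in CL6G45 and 9.25, 8.87, 8.63, 8.73 and 8.44 in CL6G52. The 4 lowest CL6G52 arrays lie below every P19CL6 array and replicate 1 lies above them. Sqle differed by -0.28 (adjusted p = 0.13) with all replicates and fell by 0.39 (SE 0.09, adjusted p = 0.00725) without replicate 1. Lss, lanosterol synthase, differed by -0.44 (adjusted p = 0.0875) and fell by 0.64 (SE 0.12, adjusted p = 0.0013) without replicate 1, where its signals were 7.69, 7.76, 7.59 and 7.65 against 8.19 to 8.53 in P19CL6.

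Among the enzymes that convert lanosterol to cholesterol, Ebp, a sterol isomerase, read 7.96, 7.82, 8.15, 8.33 and 8.49 in P19CL6 and 7.58, 7.63, 7.69, 7.42 and 7.63 in CL6G52. All CL6G52 arrays are lower, and here replicate 1 reads like the other 4. Ebp fell by 0.56 (SE 0.12, adjusted p = 0.00405). Nsdhl, a dehydrogenase that takes part in removing methyl groups from the ring, fell by 0.28 (adjusted p = 0.0488) and by 0.33 without replicate 1. With all replicates in, the Nsdhl call held in 1 of the 10 fits that left out 1 array, that without CL6G52 replicate 1, and the adjusted p rose to as much as 0.133. Without replicate 1, calls were also made for Msmo1, a methylsterol oxidase, at -0.6, Dhcr7, which catalyses a last reduction to cholesterol, at -0.52, Tm7sf2, a sterol reductase, at -0.43, and Cyp51, lanosterol demethylase, at -0.39. Hsd17b7 at -0.3 (adjusted p = 0.37), Sc5d at -0.18 (adjusted p = 0.206) and the cholesterol carrier Stard4 at -0.34 (adjusted p = 0.0603) were not called.

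These calls depend on the scaling. With the deposited signals and no normalization, 0 of 31 members were called in limma in CL6G52 with or without replicate 1. Of all genes, 1.3% and 0.728%, respectively, were called in these fits. An unadjusted p below 0.05 was reached by 5 and 6 sterol genes, and by 12.4% and 12.2% of all genes. On the probe set read for each, all 18 sterol genes were again lower. Their medians lay 0.37 and 0.45 below the median of all genes, which itself shifted by 0.11 and 0.14 under that scaling. The Gapdh 3′ to 5′ signal ratio, a measure of RNA or labelling quality, ran from 0.781 to 0.856 on the CL6G52 MOE430A arrays and from 0.835 to 0.887 on those of P19CL6. Of 8 embryonal carcinoma markers, Nanog at -0.66 and Tdgf1 at -0.54 fell in CL6G52 with all replicates. Without replicate 1, 3 of the 8 were called, all lower: Nanog at -0.57, Tdgf1 at -0.62 and Pou5f1 at -0.25. The summed log2 level of all 8 ran from 73.1 to 74.6 in CL6G52 and from 74.6 to 76.5 in P19CL6. The summed level of the 6 endoderm markers was 24.9 to 27.6 in CL6G52 and 27.7 to 31.6 in P19CL6. Of the 4 endoderm markers tested, Foxa2 fell by 1.89 with all replicates, and without replicate 1 Foxa2 fell by 1.94 and Dab2 rose by 0.63. The heart muscle marker Actc1 fell by 0.79 in both forms. The part of RNA quality and of these markers in the sterol differences was not tested.

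**Figure D3:**
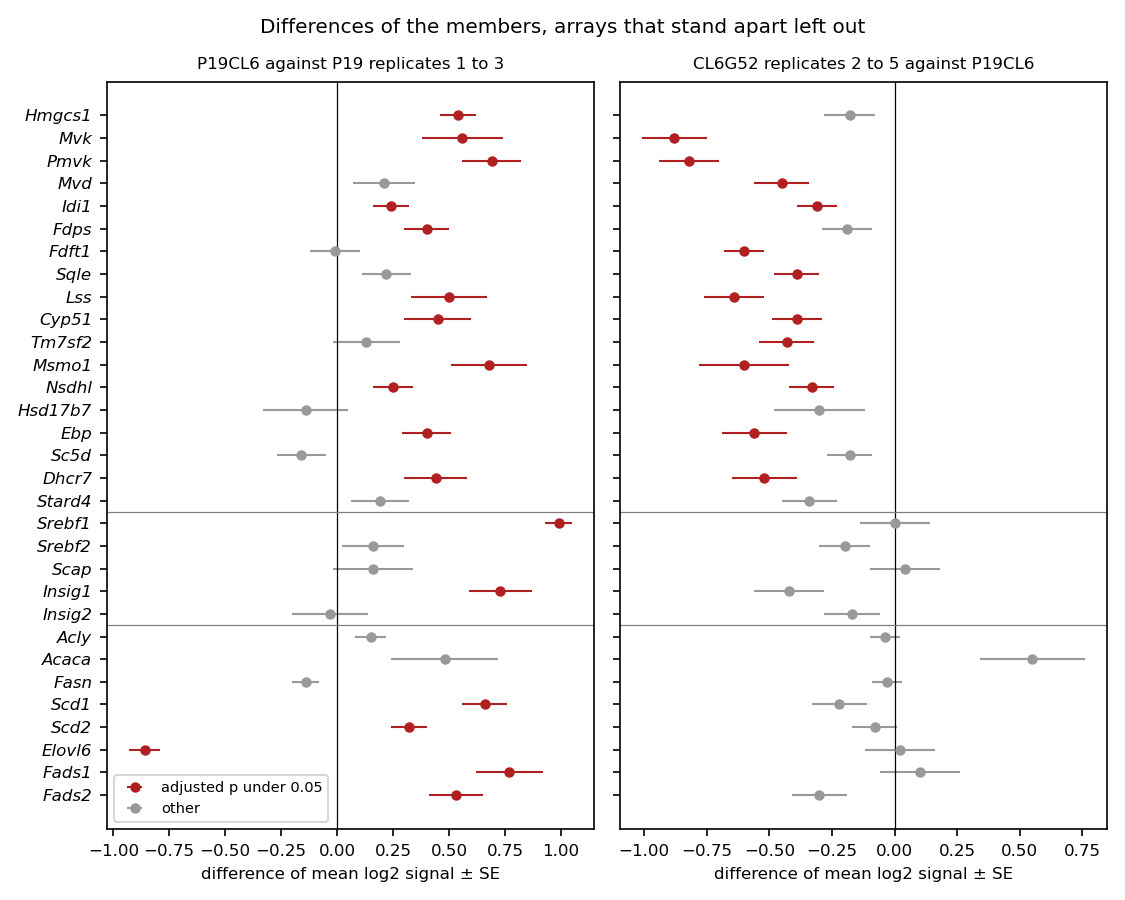
Difference of mean log2 signal ± SE for each member, left for P19CL6 against P19 replicates 1 to 3 and right for CL6G52 replicates 2 to 5 against P19CL6, with called members in red. On the right the 13 called members are all sterol genes below 0. On the left 17 of the 18 called members are above 0 and Elovl6 is below.

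The sequences before the transcription starts are shown because the sterol genes were lower together in CL6G52, and they let the elements known for SREBP control be seen. RefSeq promoter sequences on GRCm38.p6 were found for 25 of the 32 members, with 33 start sites. No entry was found for Fdps, Fdft1, Sqle, Stard4, Scd1, Scd2 and Fads1. In the 250 bases before each start, 3 motifs were searched on both strands: TCACNCCAC, a form of the sterol regulatory element, CCAAT, the Y box bound by NF-Y, and CACGTG, an E box. CCAAT read on the other strand is ATTGG, and the 2 can share bases, as at 1 place before Fasn. The sequences below run 5′ to 3′ toward the start site, with matches in capitals, and Elovl6 is shown as a fatty acid gene without a match.
Hmgcs1 (chr13:119690101-119690350, plus strand): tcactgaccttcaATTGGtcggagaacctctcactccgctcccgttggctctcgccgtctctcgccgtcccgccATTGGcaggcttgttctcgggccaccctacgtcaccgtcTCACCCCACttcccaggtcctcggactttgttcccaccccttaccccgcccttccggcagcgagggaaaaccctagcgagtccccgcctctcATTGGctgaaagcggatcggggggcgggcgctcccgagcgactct
Mvk (chr5:114444019-114444268, plus strand): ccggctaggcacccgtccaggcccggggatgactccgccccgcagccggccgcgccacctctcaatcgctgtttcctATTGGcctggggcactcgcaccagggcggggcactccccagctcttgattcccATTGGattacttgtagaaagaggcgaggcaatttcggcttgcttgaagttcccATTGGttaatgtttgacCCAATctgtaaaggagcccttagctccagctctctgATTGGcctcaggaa
Lss (chr10:76531355-76531604, plus strand): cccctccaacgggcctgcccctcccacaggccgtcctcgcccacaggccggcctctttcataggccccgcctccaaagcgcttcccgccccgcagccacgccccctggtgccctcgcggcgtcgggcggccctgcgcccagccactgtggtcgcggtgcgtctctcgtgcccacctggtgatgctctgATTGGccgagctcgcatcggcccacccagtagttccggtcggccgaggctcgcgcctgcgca
Elovl6 (chr3:129532136-129532385, plus strand): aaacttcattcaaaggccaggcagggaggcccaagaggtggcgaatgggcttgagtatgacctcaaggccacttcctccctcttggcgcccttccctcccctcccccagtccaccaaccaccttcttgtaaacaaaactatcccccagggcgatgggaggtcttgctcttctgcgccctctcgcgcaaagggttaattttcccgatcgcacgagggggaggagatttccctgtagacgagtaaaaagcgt
Hmgcs1 holds the 1 sterol regulatory element of this form found among the members, at position -137 from the start, and 3 CCAAT matches. Mvk holds 5 CCAAT matches and Lss 1. CCAAT was found before 14 of the 18 start sites of sterol genes (77.8%), covering 14 of 15 genes with an entry (the unread Acat2 is the 1 without a match), and before 33.8% of all 32851 promoters of the table. It was found before 5 of 10 start sites of the regulators and 1 of 5 of the fatty acid genes, that of Fasn. CACGTG stood before 16.7% of sterol start sites and 6.02% of all promoters. The element TCACNCCAC stood before 5.56% of sterol start sites and 1.05% of all promoters. A match describes the letters in this window and does not show a bound site. Hmgcs1, the gene with the TCACNCCAC match, was not called in CL6G52, and the called genes with an entry had no such match. The part of these motifs in the sterol differences was not tested.

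Among the regulators, neither SREBP gene was called in CL6G52. Srebf1, which encodes SREBP-1, read 8.5, 8.62, 8.67, 9.51 and 9.51 in P19, 9.69, 9.67, 9.45, 9.52 and 9.61 in P19CL6 and 9.51, 9.57, 9.66, 9.58 and 9.54 in CL6G26. It read 9.67, 9.82, 9.71, 9.63 and 9.69 in CL6G36, 9.76, 9.61, 9.76, 9.78 and 9.77 in CL6G45 and 9.62, 9.51, 9.58, 9.63 and 9.61 in CL6G52. P19 replicates 1 to 3 lie far below the other 27 arrays, which span 9.45 to 9.82. The difference of CL6G52 from P19CL6 was 0 with and without replicate 1 (SE 0.14 without it). Srebf2, which encodes SREBP-2, read 8.46, 8.31, 8.46, 8.56 and 8.58 in P19, 8.63, 8.56, 8.57, 8.62 and 8.46 in P19CL6 and 8.72, 8.52, 8.53, 8.53 and 8.47 in CL6G26. It read 8.51, 8.32, 8.92, 8.88 and 8.91 in CL6G36, 8.79, 8.92, 9.01, 8.68 and 9.04 in CL6G45 and 9.12, 8.41, 8.26, 8.5 and 8.31 in CL6G52. CL6G52 replicate 1 is the highest of the 30 arrays for Srebf2, and CL6G52 replicates 2 to 5 reach below every P19CL6 array in 3 cases. Srebf2 differed by -0.05 (adjusted p = 0.883) with all CL6G52 replicates and by -0.2 (adjusted p = 0.258) without replicate 1.

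Insig1, a retention protein whose gene is itself a known SREBP target, read 7.15, 6.9, 7.13, 7.7 and 7.83 in P19, 7.7, 7.75, 7.82, 7.84 and 7.84 in P19CL6 and 7.73, 7.47, 7.67, 7.56 and 7.99 in CL6G26. In the remaining strains it read 7.67, 7.53, 7.76, 7.59 and 7.6 for CL6G36, 8.1, 7.83, 8.03, 8.33 and 7.8 for CL6G45 and 7.97, 7.1, 7.33, 7.66 and 7.38 for CL6G52. P19 replicates 1 to 3 and CL6G52 replicates 2, 3 and 5 are low for Insig1. Its difference in CL6G52 was -0.3 (adjusted p = 0.493), or -0.42 (SE 0.14, unadjusted p = 0.00566, adjusted p = 0.195 over the MOE430B probe sets in limma) without replicate 1. Insig2 was not called in any comparison, with strain means from 6.48 to 6.58. Scap, the escort protein, was called in CL6G45, as described below.

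In fatty acid synthesis, CL6G52 differed from P19CL6 by at most 0.55 in size without replicate 1, for Acaca, acetyl-CoA carboxylase (SE 0.21, adjusted p = 0.12), which reads close to the floor of 4.61 on the MOE430A probe set that also enters the fatty acid mean. Its brighter MOE430B probe set differed by -0.06 (adjusted p = 0.935) over all replicates. The others lay between -0.3 for Fads2 and 0.1 for Fads1. Fasn, the fatty acid synthase, read 10.1, 10.05, 10, 9.76 and 9.87 in P19, 9.83, 9.93, 9.85, 9.95 and 10.01 in P19CL6 and 9.94, 9.88, 9.95, 9.86 and 9.99 in CL6G26. Its other signals were 9.75, 9.52, 9.66, 9.51 and 9.54 in CL6G36, 9.52, 9.51, 9.56, 9.68 and 9.65 in CL6G45 and 9.73, 9.9, 9.81, 9.95 and 9.86 in CL6G52. All 10 arrays of CL6G36 and CL6G45 are below all P19CL6 arrays, and those of CL6G52 overlap them. Arrays did not overlap those of P19CL6 for 12.3% of all genes in CL6G36 and 13.7% in CL6G45. Fasn fell by 0.32 in CL6G36 (SE 0.06, adjusted p = 0.000531) and by 0.33 in CL6G45 (SE 0.06, adjusted p = 0.000428). In CL6G52 it differed by -0.06 (adjusted p = 0.662).

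The 2 stearoyl-CoA desaturases, which place a double bond in saturated fatty acids, differed in their pattern. Scd1 read 8.45, 8.67, 8.58, 9.22 and 9.22 in P19, 9.3, 9.35, 9.11, 9.25 and 9.16 in P19CL6 and 8.41, 8.18, 8.48, 8.36 and 8.48 in CL6G26. It read 8.67, 8.55, 8.6, 8.47 and 8.67 in CL6G36, 9.48, 9.53, 9.47, 9.46 and 9.48 in CL6G45 and 9.53, 9.1, 8.96, 9.05 and 8.96 in CL6G52. CL6G26 and CL6G36 are low on every array, without overlap with P19CL6, and CL6G45 is high on every array. In CL6G26, Scd1 was the 1 member called of 31, at -0.85 (SE 0.12, 1.81-fold, adjusted p = 1.61e-05), where the background was 1.24% of genes in either direction and 0.827% lower, and 4.15% had arrays that did not overlap. In CL6G36 it fell by 0.64 (SE 0.12, adjusted p = 0.000155), where 12.3% of all genes had arrays that did not overlap. In CL6G45 it differed by 0.25 (adjusted p = 0.14) although no array overlapped P19CL6, as was the case for 13.7% of all genes in that comparison. The range of the 4 subline means was 1.1, the largest of the members, with an adjusted p of 4.2e-08 for a difference among the sublines. A dimmer probe set of Scd1 gave a difference of -1.15 in CL6G26 (adjusted p = 6.81e-05) and of -0.35 in CL6G36 (adjusted p = 0.16).

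Scd2 read 11.03, 11.09, 11.18, 11.51 and 11.33 in P19, 11.44, 11.47, 11.46, 11.46 and 11.27 in P19CL6 and 11.46, 11.53, 11.03, 11.41 and 11.38 in CL6G26. It read 11.36, 11.5, 11.36, 11.38 and 11.37 in CL6G36, 11.49, 11.4, 11.55, 11.49 and 11.68 in CL6G45 and 11.44, 11.51, 11.29, 11.36 and 11.21 in CL6G52. P19 replicates 1 to 3 and CL6G26 replicate 3 are the lowest, and the arrays of P19CL6 and each subline overlap. Scd2 was not called in any of the 5 comparisons on its brightest probe set, with differences from P19CL6 of -0.06 to 0.1 in the sublines. Its dimmer probe sets gave 0.56 and 0.63 for P19CL6 against P19 (adjusted p = 0.0287 and 0.0176), where the brightest gave 0.19 (adjusted p = 0.154).

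Fads1, a desaturase of polyunsaturated fatty acids, read 7.79, 7.53, 7.61, 8.41 and 8.53 in P19, 8.62, 8.7, 8.32, 8.28 and 8.15 in P19CL6 and 8.6, 8.19, 8.69, 8.59 and 8.26 in CL6G26. It read 8.9, 8.72, 9.1, 8.83 and 8.49 in CL6G36, 8.88, 9.13, 9.19, 9.19 and 9.25 in CL6G45 and 9.11, 8.53, 8.38, 8.59 and 8.54 in CL6G52. CL6G45 is high on all 5 arrays, above every P19CL6 array, and CL6G52 replicate 1 reads at that level. The arrays of CL6G45 and P19CL6 did not overlap for 13.7% of all genes. Fads1 rose by 0.71 in CL6G45 (SE 0.16, 1.64-fold, adjusted p = 0.00231) and was called without any single array. A dimmer MOE430B probe set of Fads1 went the other way, at -0.15 (adjusted p = 0.79). In CL6G36 the difference was 0.4 (adjusted p = 0.0908).

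**Figure D4:**
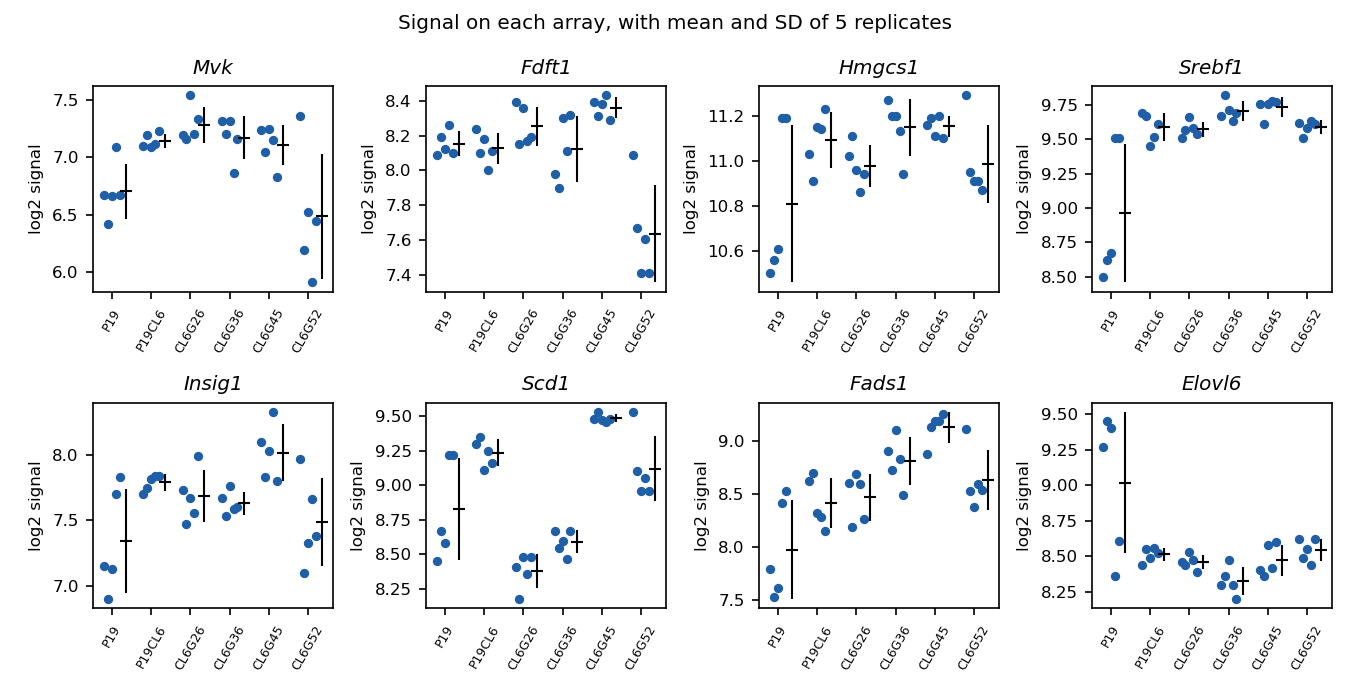
Log2 signal of 8 members on each array (points, replicates 1 to 5 from left to right within a strain), with the mean ± SD of 5 replicates beside them, each panel on its own scale that does not start at 0. Mvk and Fdft1 are low in CL6G52 replicates 2 to 5, Srebf1, Insig1 and Scd1 are low and Elovl6 is high in P19 replicates 1 to 3, and Scd1 is low in CL6G26 and CL6G36.

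For P19CL6 against P19, 4 of 31 members were called over all replicates, 3 higher and 1 lower, where the background was 4.46% of genes, with 2.57% higher and 1.89% lower. The arrays of the 2 strains did not overlap for 2.23% of genes. Pmvk rose by 0.54 (adjusted p = 0.0125), Srebf1 by 0.62 (adjusted p = 0.0122) and Scd1 by 0.4 (adjusted p = 0.0349), and Elovl6, which elongates saturated fatty acids, fell by 0.5 (adjusted p = 0.0214). Each of the 4 calls was lost when P19 replicate 1, 2 or 3 was left out, the count then being 0, and in a fit of these 2 strains alone it was also 0. At an unadjusted p below 0.05, 12 of 31 members and 19.9% of all genes passed with all replicates in. Leaving out P19 replicate 4 gave 10 calls, leaving out P19 replicate 5 gave 8, and leaving out P19CL6 replicate 1 gave 2. The shares of all genes called were not counted in the fits without 1 array or in that of these 2 strains alone. These counts therefore do not show a change particular to the members. With P19 replicates 4 and 5 both left out, 18 members were called, 17 of them higher in P19CL6, against a background of 19.6% in either direction and 10.5% higher, with 9.1% lower. By group these were 11 of 18 sterol genes, 2 of 5 regulators and 5 of 8 fatty acid genes. Median differences were 0.32 for sterol genes and 0.4 for fatty acid genes, against 0 over all genes.

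Srebf1 had the largest of these differences, at 0.99 (SE 0.06, 1.98-fold, adjusted p = 4.64e-13), from 8.5, 8.62 and 8.67 in P19 to a mean of 9.59 ± 0.1 (SD, n = 5) in P19CL6. Insig1 rose by 0.73 (SE 0.14, adjusted p = 0.000581). Elovl6 went the other way, with P19 signals of 9.27, 9.45, 9.4, 8.36 and 8.61 against 8.44, 8.55, 8.49, 8.56 and 8.52 in P19CL6. The first 3 P19 arrays are above all other arrays, and the last 2 lie at 8.36 and 8.61, close to P19CL6. Without those 2, Elovl6 fell by 0.86 (SE 0.07, 1.82-fold, adjusted p = 1.93e-10). On the sterol side Pmvk rose by 0.69, Msmo1 by 0.68, Mvk by 0.56, Hmgcs1 by 0.54, Lss by 0.5, Cyp51 by 0.45, Dhcr7 by 0.44 and Fdps and Ebp by 0.4, with smaller rises for Nsdhl (0.25) and Idi1 (0.24). Fdft1, which fell in CL6G52, differed by -0.01 (adjusted p = 0.968) here, and Sqle by 0.22 (adjusted p = 0.16). Among fatty acid genes Fads1 rose by 0.77, Scd1 by 0.66, Fads2 by 0.53 and Scd2 by 0.32. Acly, the citrate lyase that supplies cytosolic acetyl-CoA, differed by 0.15 (adjusted p = 0.116) and Fasn by -0.14 (adjusted p = 0.134).

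The Gapdh ratio did not overlap between these strains on MOE430A, at 0.908 to 0.954 in P19 and 0.835 to 0.887 in P19CL6, while on MOE430B it overlapped. P19 replicates 4 and 5 had ratios of 0.954 and 0.924, where replicates 1 to 3 had 0.937, 0.908 and 0.935. Of 3 tested fibroblast markers 2 fell in P19CL6 against P19 replicates 1 to 3, Thy1 by 1.01 and Col1a2 by 0.88, and the summed log2 level of all 6 was 22 to 27.1 on the P19 arrays and 18.9 to 24 on the P19CL6 arrays. Of the other markers, Foxa2 rose by 0.62, Tubb3, a neural marker, by 0.57 and the embryonal carcinoma markers Tdgf1 by 0.58 and Pou5f1 by 0.2, and Sox2 fell by 0.51. The part of the Gapdh ratio or of these markers in the member differences was not tested. The 4 comparisons of the sublines use the same P19CL6 arrays as the comparison with P19, so a P19CL6 array that reads high or low enters all 5.

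In CL6G36, 7 of 31 members were called against P19CL6, 1 higher and 6 lower, where the background was 13.5% of genes, with 6.83% higher and 6.72% lower, and 12.3% had arrays that did not overlap. With median scaling the split was 0 higher and 6 lower, where 11.8% of all genes were called. Besides Fasn and Scd1, Pmvk fell by 0.6 (adjusted p = 0.000706), Ebp by 0.57 (adjusted p = 0.000794), Nsdhl by 0.41 (adjusted p = 0.000682) and Dhcr7 by 0.42 (adjusted p = 0.0308), and Fdps rose by 0.35 (adjusted p = 0.025). For Ebp the CL6G36 arrays read 7.68, 7.66, 7.57, 7.49 and 7.49, all below the P19CL6 arrays. The Dhcr7 signals in CL6G36 were 8.8, 8.63, 8.34, 8.1 and 8.1, with the first array inside the P19CL6 range. The calls of Dhcr7 and Fdps were lost in 6 and 5 of the 10 fits that left out 1 array, with an adjusted p of up to 0.101 and 0.0722. The others held in all 10. Markers moved in this subline too: of 8 embryonal carcinoma markers 1 rose and 2 fell, with Nanog at 8.76 in P19CL6 and 7.66 in CL6G36, and 2 of 4 endoderm markers fell, Foxa2 by 1.99 and Gata6 by 0.69. Their part in the member differences was not tested.

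In CL6G45, 9 of 31 members were called, 4 higher and 5 lower. The background was 13.3% of genes, with 6.55% higher and 6.71% lower, and 13.7% had arrays that did not overlap. Fdps read 10.74, 10.75, 10.8, 10.62 and 10.81 against 10.27, 10.15, 10.17, 10.13 and 10.27 in P19CL6, with no overlap, and rose by 0.55 (SE 0.11, adjusted p = 0.000623). Cyp51 rose by 0.49 (adjusted p = 0.0114) and Mvd by 0.38 (adjusted p = 0.0373), while Ebp fell by 0.55 (adjusted p = 0.00134), Pmvk by 0.49 (adjusted p = 0.0056) and Idi1 by 0.24 (adjusted p = 0.0307). Sterol genes thus went both ways in CL6G45, and their median was 0.11. Scap read 6.07, 6.64, 6.47, 6.76 and 6.63 in CL6G45 and 7.38, 6.73, 7.53, 7.23 and 7.17 in P19CL6. Replicate 2 of P19CL6 reads within the CL6G45 range for Scap, and CL6G52 replicate 1 at 6.42 does too. Scap fell by 0.7 in CL6G45 (SE 0.16, adjusted p = 0.00224) and was the 1 regulator called in a comparison of a subline with P19CL6. The calls of Mvd and Idi1 were lost in 6 and 5 of 10 fits without 1 array, with an adjusted p of up to 0.102 and 0.112. Mvd also lost its call with median scaling, and Cyp51 with the mean of its tested probe sets. The dimmer Cyp51 sets differed by 0.14 (adjusted p = 0.599) and 0.74 (adjusted p = 0.315). Of 6 other tested probe sets of the members called in CL6G45, 5 had the same sign and 0 were called. In CL6G45 also 1 of 8 embryonal carcinoma markers rose and 2 fell, with Nanog at 7.74, and 2 of 4 endoderm markers fell, Foxa2 by 1.38 and Gata6 by 0.6, and their part was not tested. With the deposited signals and no normalization, limma called 1 member in CL6G36 and 0 in CL6G45 and CL6G26. The shares of all genes called there were 2.5% in CL6G36, 2.92% in CL6G45 and 0.258% in CL6G26. In CL6G45 6 sterol genes, 1 regulator and 1 fatty acid gene then had an unadjusted p below 0.05, and in CL6G26 2 sterol genes and 1 fatty acid gene, where 16.0% and 8.91% of all genes did.

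Pmvk and Ebp fell in CL6G36, CL6G45 and CL6G52, comparisons that share the P19CL6 arrays, and in CL6G26 they differed by -0.07 and -0.11 without a call. Nsdhl fell in CL6G36 and CL6G52, Idi1 in CL6G45 and CL6G52, and Fdps rose in CL6G36 and CL6G45. Tested as differences among the 4 sublines, 20 of 31 members were called, 15 of 18 sterol genes, 1 of 5 regulators and 4 of 8 fatty acid genes, where the background was 23.2% of genes. The median range of the subline means was 0.49 for sterol genes, 0.28 for fatty acid genes and 0.37 over all genes. Msmo1 had the widest range of the sterol genes (0.91, adjusted p = 0.00289), followed by Mvk (0.8, adjusted p = 0.00121) and Fdft1 (0.72, adjusted p = 6.44e-06). Hmgcs1 (0.17), Hsd17b7 (0.36) and Sc5d (0.3) were not called. Fads2 was called at 0.41 (adjusted p = 0.0221). Leaving out 1 array gave 16 to 24 calls, and the deposited scaling gave 9, with the shares of all genes not counted in those fits.

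Genes around these pathways were counted from 4 further lists, whose counts stand against the same shares of all genes: 4.46% for P19CL6 against P19 (19.6% without P19 replicates 4 and 5), 1.24% in CL6G26, 13.5% in CL6G36, 13.3% in CL6G45 and 3.18% in CL6G52 (4.89% without replicate 1). Of 21 tested genes of other fatty acid synthesis and elongation, 1 rose for P19CL6 against P19, Hsd17b12, a reductase of fatty acid elongation (0.5, adjusted p = 0.0173). Without P19 replicates 4 and 5, 8 rose and 4 fell, with Hsd17b12 at 0.85, Acsl3, an acyl-CoA synthetase, at 0.68, Aacs, which activates acetoacetate, at 0.76, and Lpin1, a phosphatidate phosphatase, at 0.79. In CL6G45, 4 rose and 2 fell, and Acsl4, an acyl-CoA synthetase for polyunsaturated fatty acids, rose by 1.01 (SE 0.14, adjusted p = 7.61e-06). In CL6G36, the citrate carrier Slc25a1 rose by 0.62 (adjusted p = 0.000979) and Hacd3 fell by 0.54 (adjusted p = 0.00204). In CL6G52, Acsl4 rose by 0.47 (adjusted p = 0.0496) and Aacs fell by 0.55 (adjusted p = 0.0469). Without replicate 1, 2 of the 21 were called there, Aacs at -0.7 and Hacd2 at -0.3, and Acsl4 differed by 0.41 (SE 0.15, adjusted p = 0.0942).

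Of 9 tested genes of sterol transport and LXR targets, 1 rose and 1 fell in P19CL6 against P19, Scarb1, a lipoprotein receptor, by 0.42 and Mylip, a ubiquitin ligase, by 0.47. Without P19 replicates 4 and 5, 3 rose (Scarb1 by 0.66, Npc2 by 0.55 and Osbpl2 by 0.28) and Mylip fell by 0.45. None was called in CL6G26, where 0 had an unadjusted p below 0.05 in limma. In CL6G36 2 rose, with Osbpl2, an oxysterol-binding protein, at 0.48 (adjusted p = 0.000556). In CL6G45 4 rose, and in CL6G52 1 rose, the sterol exporter Abcg1, by 0.84 (SE 0.2, adjusted p = 0.0107). Without CL6G52 replicate 1, Abcg1 rose by 0.89, while Npc2, a lysosomal cholesterol carrier, fell by 0.39 and Scarb1 by 0.38. Of 8 tested genes of SREBP processing and turnover, 1 was called in the 5 comparisons, Mbtps1, the site-1 protease that cleaves SREBPs, which rose in CL6G45 by 0.32 (adjusted p = 0.00442). Without P19 replicates 4 and 5, 3 of the 8 were called, with Erlin2 up by 0.46 (adjusted p = 0.00309), Rnf139 up by 0.36 (adjusted p = 0.0158) and Fbxw7 down (-0.43, adjusted p = 0.0209), and without CL6G52 replicate 1 none was. Of 8 genes of the isoprenoid branch, 2 rose in CL6G36, Fnta and Dhdds, by 0.22 and 0.33. Acat1, the mitochondrial thiolase, fell by 0.84 (adjusted p = 0.000146) in CL6G52 without replicate 1 and rose by 0.65 (adjusted p = 0.0106) in P19CL6 against P19 replicates 1 to 3, the 1 gene of that list called in each.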

How the data were processed

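RNA of 30 samples was hybridised to 30 MOE430A and 30 MOE430B arrays after two-cycle biotin labelling, per the labels' protocols. The deposited values are linear signal intensities that the authors made with GCOS, per the submitters' processing notes (no version named). No raw scanner data were used here. Within each array type the 64 control probe sets were dropped, intensities were quantile normalized, with a minimum of 1, and log2 transformed. A probe set was tested if it exceeded the floor (the 40th percentile on MOE430A, log2 4.61, and the 60th on MOE430B, log2 4.15) on at least 5 of 30 arrays. This left 15068 and 12131 probe sets. Strain means over all 30 arrays were fitted with limma 3.58.1 in R 4.3.3 with a mean-variance trend and 24 residual degrees of freedom, and p-values were adjusted by the Benjamini-Hochberg method. Fits without P19 replicates 4 and 5 or CL6G52 replicate 1 used the same model. The number of arrays limits the precision, and a shared shift of all genes on an array is removed by the normalization.

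Each gene was read from its brightest single-symbol probe set, MOE430A first, with x_at sets only where no other exists. Of 72 member probe sets 66 were tested, and 20 members had more than 1. Values of every array were given for Srebf1, Srebf2, Insig1, Hmgcs1, Sqle, Fasn, Scd1 and Scd2 whatever their values and for those with a range of strain means of at least 1 on the log2 scale. Genes outside that rule, such as Mvk, Pmvk, Fdft1, Ebp, Lss, Elovl6, Scap, Fdps and Dhcr7, were named after their values were seen. The members and lists were chosen with earlier results of these data known. The scripts were tested on simulated data. Alternatives covered the scaling, the filter, the choice of probe set, the fit and each array left out. Replicates sharing a number did not deviate together (correlations from -0.15 to 0.11 on MOE430A), so the numbers do not pair the samples.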

Additional observations from a re-analysis of the deposited data

Results flagged for a closer look

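In 10 of 72 groups of 5 arrays examined, 1 array stood apart from the other 4, with a gap to its nearest neighbour of more than 0.71 of the whole range. Chance gives about 1 in 20 groups. In CL6G52 the array was replicate 1 for the mean of the sterol genes (gap 0.944 of the range, 0.07 against -0.44 for the next array), for Hmgcs1 (0.81, 11.29 against 10.95), for Scd1 (0.754, 9.53 against 9.1), for Srebf2 (0.721, 9.12 against 8.5) and for Fads1 (0.712, 9.11 against 8.59). In CL6G45 replicate 2 was low for Srebf1 (0.882, 9.61 against 9.76) and high for Scd1 (0.714, 9.53 against 9.48). Replicate 2 of CL6G36 was high for Scd2 (0.857, 11.5 against 11.38), and replicate 5 of P19CL6 was low for Scd2 (0.85, 11.27 against 11.44). Replicate 1 of CL6G26 was high for Srebf2 (0.76, 8.72 against 8.53).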

How the results depend on the processing

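The deposited scaling lowered the count of called members in each comparison. It gave 0 for P19CL6 against P19, 0 for CL6G26, 1 for CL6G36, 0 for CL6G45, 0 for CL6G52 and 9 among the sublines, where quantile normalization gave 4, 1, 7, 9, 6 and 20. It gave 11 for P19CL6 against P19 replicates 1 to 3 and 0 for CL6G52 replicates 2 to 5, where quantile normalization gave 18 and 13. The shares of all genes called under the deposited scaling were 7.5% and 0.728% in these 2. With all replicates they were 0.364% for P19CL6 against P19, 0.258% in CL6G26, 2.5% in CL6G36, 2.92% in CL6G45 and 1.3% in CL6G52. The share among the sublines was not counted under that scaling. At 0 calls in limma for P19CL6 against P19, 4 sterol genes, 1 regulator and 4 fatty acid genes had an unadjusted p below 0.05. Of all genes, 9.74% did. Deposited scaling shifted the median of all genes by 0.13 in CL6G26, 0.12 in CL6G45 and 0.11 in CL6G52. The cause was not tested. Fitting only the groups compared gave 0 for P19CL6 against P19 and 2 for CL6G26, with the shares of all genes not counted. Leaving out P19 replicates 4 and 5 gave 18 for P19CL6 against P19. Leaving out P19CL6 replicates 1 and 2 gave 0 there and a sterol minus fatty acid mean of 0.02 in CL6G26. The mean of all probe sets gave -0.1 for that difference in CL6G36.

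Leaving out 1 array gave 0 to 10 calls for P19CL6 against P19, 1 to 1 for CL6G26, 5 to 8 for CL6G36, 7 to 10 for CL6G45, 4 to 13 for CL6G52 (13 without CL6G52 replicate 1) and 16 to 24 among the sublines. It gave 13 to 18 against P19 replicates 1 to 3 and 10 to 13 for CL6G52 replicates 2 to 5. The share of all genes called was counted for none of these fits but that without CL6G52 replicate 1 (4.89%). The sterol minus fatty acid mean then ran from -0.08 to -0.02 in P19, 0.06 to 0.12 in CL6G26, -0.03 to 0.03 in CL6G36, -0.12 to -0.04 in CL6G45 and -0.45 to -0.33 in CL6G52. With the replicate number as a block the counts were 4, 1, 7, 9 and 5 for the 5 comparisons (the call lost is Nsdhl, CL6G52 against P19CL6, adjusted p = 0.0553 in limma) and 21 among the sublines. Of the single-gene values under an alternative, 3829 kept their side of the threshold, 133 lost a call and 68 gained one, and 163 changed sign, 0 of them values that were called. The separate comparisons without P19 replicates 4 and 5 and without CL6G52 replicate 1 were chosen after seeing the data.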
